A study of Mus musculus with 10 samples.

Results

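The genes of cholesterol synthesis, uptake and efflux were followed in the interscapular brown fat (iBAT) of mice that lack cardiolipin synthase in their adipocytes. The 31 genes were chosen by name, as regulators, enzymes, receptors and carriers of cholesterol metabolism. Of these, 30 stood in the table of 15075 genes and all 30 passed the filter on low values (a mean of at least 10 in Control or AdCKO), which 11244 genes passed. Soat1 passed it only through AdCKO and Stard4 only through Control. Hmgcs1 was not analysed here. RNA came from 5 Control and 5 AdCKO mice, all C57BL/6, 20 weeks old and kept at room temperature, with 1 library per mouse. AdCKO mice carry a homozygous Crls1 allele with loxP sites around exon 4 together with a Cre recombinase driven by the Adipoq promoter, which acts in adipocytes, so that the other cells of the tissue are not targeted. Control mice carry the same floxed allele without Cre, and the sample labels call them wild type.

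Cells make cholesterol from acetyl-CoA. The mevalonate arm builds isoprene units and joins them to farnesyl diphosphate, and the sterol arm turns these into squalene, lanosterol and then cholesterol. When sterol in the membrane of the endoplasmic reticulum is low, SCAP carries the transcription factor SREBP2, the product of Srebf2, to the Golgi, where it is cut free to activate the genes of synthesis and uptake. INSIG proteins hold SCAP back when sterol is plentiful. The liver X receptors (LXR) respond to oxysterols instead and activate genes that export cholesterol or limit its uptake. In fat, cholesterol sits in the membranes and in the lipid droplets of adipocytes, and macrophages of the tissue also take up and export it.

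The deposited values are normalized reads per kb of counted exon, so they can be set beside each other between genes, and they are called values below. Log2 fold changes (log2FC) compare AdCKO with Control after adding 1 to each value, so that changes of genes with low values come out too small. A gene was called higher or lower at a limma adjusted p (Benjamini-Hochberg) under 0.01. Crls1 itself had values of 1291, 927, 813, 1101 and 1170 in Control replicates 1 to 5, and of 193, 195, 249, 208 and 242 in AdCKO replicates 1 to 5. Every AdCKO library was thus below every Control library (log2FC -2.27, SE 0.13, limma adjusted p = 3.53e-08).

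The tissue held other cells beside brown adipocytes, and fewer cells of a type and less RNA per cell cannot be told apart in bulk tissue. Of 11 tested macrophage markers, 10 were higher in AdCKO, and the summed value of the list was 472.7 to 1369 in Control and 6335 to 8430 in AdCKO. Adgre1 and Clec4f were not found under these names. The smallest deposited value was 0.0532 and not 0, so that a low value does not show that a marker was detected. Marco, which was not tested, lay at 0.663 to 0.666 in Control. All 4 fibroblast markers were higher, with sums of 716.7 to 998.9 and of 2408 to 3486. Of 7 adipocyte markers, 6 were lower in AdCKO. The brown fat genes Ucp1, Cidea and Prdm16 stood at 38.1%, 34.2% and 40.3% of Control. Adipoq, Plin1 and Pparg, which are general to adipocytes, stood at 70.2%, 65.3% and 72.7%. The sums of 128600 to 153000 in AdCKO against 205300 to 232200 in Control mostly reflect Fabp4, also a general gene. Fabp4 was not called (means 108235 in AdCKO and 147241 in Control). Markers of skeletal muscle summed to 96.67 to 125.3 in Control and to 141 and 129 in AdCKO replicates 3 and 5, but to 5591, 21810 and 8282 in AdCKO replicates 1, 2 and 4. Markers of T and B cells summed to 158.8 in AdCKO replicate 1 and to 27.21 to 42.83 in the other AdCKO libraries. Their sums in Control were 28.6 to 39.14, and none of the 3 tested was called. The part of these cells in the results was not tested, apart from a fit with AdCKO replicates 3 and 5 alone. Total normalized reads lay between 7615403 and 8171138 in Control and between 5419800 and 5843024 in AdCKO.

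Of the 15 measured synthesis genes, 9 were lower in AdCKO iBAT, 1 was higher and 5 were not called, with a median log2 fold change of -0.75. Of the 5 LXR target and efflux genes, Abcg1 was higher, Apoc1 was lower and 3 were not called, with a median of 0.35. Over all 30 genes, 14 were lower and 4 higher, and the median was -0.29, beside -0.011 for all genes tested. This contrast moved much of the transcriptome. A call in either direction was made for 53.6% of all genes tested, with 25.6% higher and 28.0% lower. In 16 of the 30 genes no AdCKO value overlapped a Control value, where 50.9% of all genes tested had groups that did not overlap. The share of called genes in the set, 18 of 30, was therefore close to that of the background, and 9 of 15 lower calls among synthesis genes stand beside the 28.0%. Soat1, among the 18 called genes and the 16 without overlap, passed the filter only through AdCKO and adds no support to these counts. With a filter on the mean over all samples (at least 1), 14 of the 30 genes were again lower and 4 higher. With AdCKO replicates 3 and 5 alone, 13 of the 30 were lower and 3 higher, and 9 of the 15 synthesis genes were lower.

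**Figure D1:**
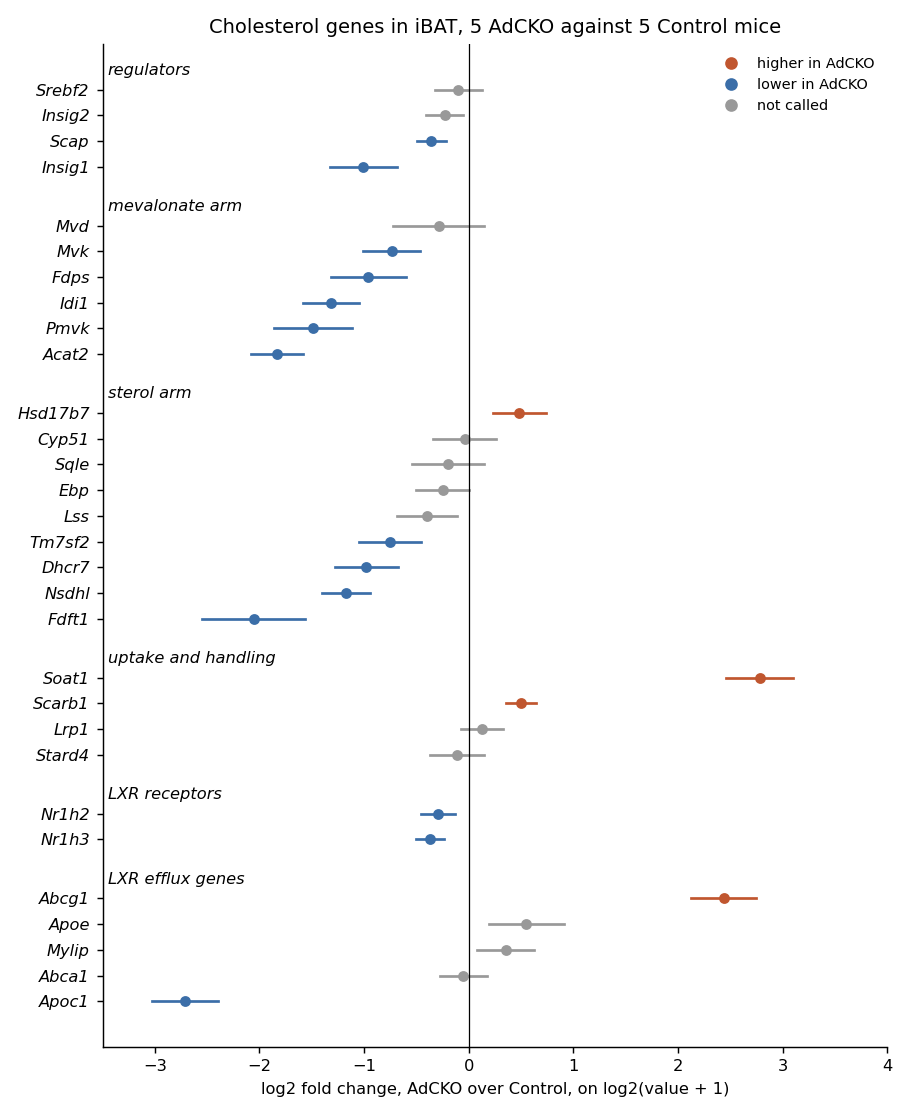
Log2 fold change of each of the 30 measured genes, AdCKO over Control, on the scale of log2(value + 1), grouped by role. Points are limma estimates from 5 mice a group, lines are 95% confidence intervals, and colour marks the call at an adjusted p of 0.01. All 6 points of the mevalonate arm lie left of 0, with the interval of Mvd reaching past it, while Soat1 (2.78) and Abcg1 (2.44) lie far to the right and Apoc1 (-2.71) far to the left.

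The promoters of 4 genes are shown first, because they belong to genes of 1 pathway that differed in their change, 3 that fell and 1 that was not called. They are the 250 bases before the start of transcription, 5′ to 3′ on the strand of the gene, from RefSeq on GRCm38.p6. Capitals mark CCAAT boxes (ATTGG or its reverse complement) and GC boxes (GGGCGG or its reverse complement), which are bound by the general factors NF-Y and Sp1 that often act beside SREBP2. The Acat2 promoter is chr17:12960726-12960975 on the minus strand, that of Idi1 chr13:8885356-8885605 on the plus strand, that of Nsdhl chrX:72918271-72918520 on the plus strand and that of Cyp51 chr5:4104698-4104947 on the minus strand.
Acat2: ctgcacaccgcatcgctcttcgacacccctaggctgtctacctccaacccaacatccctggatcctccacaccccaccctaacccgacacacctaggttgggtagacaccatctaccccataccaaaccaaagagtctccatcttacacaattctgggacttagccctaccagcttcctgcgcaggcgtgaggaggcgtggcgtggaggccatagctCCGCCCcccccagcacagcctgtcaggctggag
Idi1: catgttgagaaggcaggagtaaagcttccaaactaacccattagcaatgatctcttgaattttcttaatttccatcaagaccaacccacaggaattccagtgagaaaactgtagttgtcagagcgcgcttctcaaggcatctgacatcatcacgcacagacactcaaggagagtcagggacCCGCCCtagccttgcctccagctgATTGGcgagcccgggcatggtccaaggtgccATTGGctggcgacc
Nsdhl: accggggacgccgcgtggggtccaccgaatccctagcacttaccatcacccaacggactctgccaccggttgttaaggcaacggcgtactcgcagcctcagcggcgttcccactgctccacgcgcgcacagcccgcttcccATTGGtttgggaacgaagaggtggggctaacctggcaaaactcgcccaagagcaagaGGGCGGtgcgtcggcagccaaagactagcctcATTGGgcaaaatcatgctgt
Cyp51: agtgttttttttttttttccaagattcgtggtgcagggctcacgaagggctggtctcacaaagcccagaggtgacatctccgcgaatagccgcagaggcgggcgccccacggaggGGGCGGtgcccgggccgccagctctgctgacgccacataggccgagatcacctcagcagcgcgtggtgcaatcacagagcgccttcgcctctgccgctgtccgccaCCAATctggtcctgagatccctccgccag
The promoter of Acat2, whose mRNA fell most of these 4, has no CCAAT box in this window, while Idi1 and Nsdhl have 2 each and Cyp51 has 1. All 4 have 1 GC box. The search over windows of 250 bases before to 50 after the start, on both strands, covered 23 of the 30 measured genes, since Abcg1, Apoc1, Fdft1, Fdps, Scarb1, Sqle and Stard4 did not match the promoter table. A CCAAT box was found in 11 of the 12 matched synthesis genes, all but Acat2, beside 37.4% of all promoters and 41.1% of all genes in the table. A GC box was found in 11 of these 12, all but Pmvk, beside 35.7% of all promoters and 38.2% of all genes. The sterol regulatory element was searched as TCACCCCAC and as TCACNCCAC, the second of which includes the first. Neither was found in the 23 genes, and 0.551% and 1.24% of all promoters hold them. Other variants of the element were not searched. Both forms are rare, so that their absence in 23 genes says little. Hmgcs1, which is on the list of 31 but whose mRNA was not analysed here, has both forms in its promoter. The C/EBP-ATF composite element TGATGNAAT, in 0.965% of all promoters, and the LXR element of 2 AGGTCA half-sites in direct repeat with 4 bases between them, in 0.0152%, were not found in the 23 genes either. The LXR element was searched with both half-sites exact, which 5 of 32851 promoters hold, so that its absence in 23 genes says little. The same holds for the composite element, which is rare as well. All these matches describe letters in a window only.

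Among the regulators, Insig1 fell most. Insig1, which is both a brake on SREBP2 and one of its targets, had values of 1486, 2167, 1286, 1604 and 2075 in Control and of 745, 1019, 750.4, 807 and 911 in AdCKO. The groups did not overlap, and the mean dropped from 1724 ± 382 to 846 ± 117 (SD over 5 mice each), with a log2FC of -1.01 (SE 0.15, limma adjusted p = 6.95e-05). It was the most abundant of the 4 regulators in both groups. Scap, the sterol sensor that escorts SREBP2, had 126, 116, 119, 131 and 115 in Control and 101, 96.8, 91.6, 94.9 and 89.1 in AdCKO. Its groups did not overlap either, although the step was small (log2FC -0.36, SE 0.063, limma adjusted p = 3.02e-04). Of the annotated exon bases of Scap, 18.9% are shared with the gene 5830462I19Rik, which was not found in the table.

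Insig2, the second INSIG protein, had 142, 137, 144, 142 and 144 in Control and 116, 143, 125, 121 and 103 in AdCKO. AdCKO replicate 2 lay among the Control values and the other AdCKO values lay below all of them (log2FC -0.23, limma adjusted p = 0.0229). Without AdCKO replicate 2 the gene was called (log2FC -0.29, limma adjusted p = 0.00432). Srebf2 itself showed 99.0 ± 12.9 in Control libraries against 92.2 ± 10.2 in AdCKO libraries, and the groups overlapped (log2FC -0.10, 95% interval -0.32 to 0.13, limma adjusted p = 0.42). An mRNA level does not report how much SREBP2 was cut and active.

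The mevalonate arm was lower at 5 of 6 measured steps, with a median log2 fold change of -1.14. Acat2 encodes the cytosolic thiolase that joins acetyl-CoA units at the head of the pathway and lies at chr17:13135908-13153591 of mm9. It had the largest fall of the arm, from 901, 1248, 1130, 924 and 1044 in Control to 270, 272, 249, 339 and 342 in AdCKO. The lowest Control value was thus far above the highest AdCKO value, and the mean fell to 28.0% of Control (means 1049.8 ± 145 and 294 ± 42.8, log2FC -1.83, SE 0.12, limma adjusted p = 8.6e-08). Acat3, a neighbouring and near-identical copy of Acat2, fell as well (log2FC -2.06), and reads of the pair may have been shared between them.

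Pmvk, phosphomevalonate kinase, had 551, 877, 763, 852 and 897 in Control and 248, 267, 202, 324 and 370.5 in AdCKO. Even Control replicate 1, the lowest of its group, stood above all AdCKO libraries (log2FC -1.49, SE 0.17, limma adjusted p = 9.57e-06). Idi1, the isomerase that makes the reactive isoprene unit, had 60.2, 80.5, 76.7, 69.8 and 79.2 in Control and 24.0, 31.9, 24.4, 36.7 and 28.3 in AdCKO. On average 39.7% of the Control level was left (log2FC -1.32, SE 0.12, limma adjusted p = 1.87e-06). Fdps, which makes farnesyl diphosphate, was at 203 to 361 in Control and 115 to 192 in AdCKO (log2FC -0.96), and mevalonate kinase, Mvk, at 93.1 to 129 and 46.5 to 71.4 (-0.74), both called lower without overlap. The exception was Mvd, the decarboxylase, at 53.8 ± 16.7 in Control and 42.7 ± 7.60 in AdCKO. Its Control values spread from 33.4 to 71.5 and enclosed most AdCKO values (log2FC -0.29, 95% interval -0.72 to 0.15, limma adjusted p = 0.22).

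The sterol arm was mixed. Of its 9 genes 4 were lower, 1 was higher and 4 were not called, with a median log2 fold change of -0.40. Fdft1, squalene synthase, which commits farnesyl diphosphate to sterols, had the largest fall of all synthesis genes. Its Control values were 359, 369, 361, 170.0 and 278 and its AdCKO values 63.5, 67.9, 48.2, 89.7 and 92.2. Control replicate 4 was well below the other Control libraries but still above every AdCKO library (log2FC -2.06, SE 0.23, limma adjusted p = 7.05e-06). Of the annotated exon bases of Fdft1, 26.9% are shared with Ctsb, a lysosomal protease gene with far higher values, 3718 ± 232 in Control and 4304 ± 520.3 in AdCKO. Ctsb did not pass the test (log2FC 0.21), and whether the counting used strand is not given in the sources used here.

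Nsdhl, a dehydrogenase of the removal of methyl groups after lanosterol, had 361, 519.6, 448, 381 and 448 in Control and 171, 199, 172, 221 and 188 in AdCKO. The groups were far apart with little spread inside AdCKO (log2FC -1.17, SE 0.11, limma adjusted p = 1.35e-06). Dhcr7, the reductase of the last step in one branch, had 99.8, 157, 149, 112 and 114 in Control and 53.5, 61.5, 54.6, 70.4 and 75.3 in AdCKO. Its mean went from 126 ± 24.9 to 63.1 ± 9.59 without overlap (log2FC -0.98, SE 0.14, limma adjusted p = 5.15e-05). Tm7sf2, a sterol reductase, was at 44.9 to 77.0 in Control and 28.0 to 41.0 in AdCKO and was also lower (log2FC -0.75), with 15.3% of its annotated exon bases shared with another gene.

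Hsd17b7 went against the other called genes of synthesis. It encodes a keto-reductase that works in the same methyl removal as Nsdhl. Its values were 25.8, 24.6, 23.6, 27.2 and 30.5 in Control and 36.9, 41.9, 44.3, 35.9 and 28.7 in AdCKO. All but AdCKO replicate 5 were above every Control value (log2FC 0.49, SE 0.12, limma adjusted p = 0.00284). The call was lost with the replicate number as a block (adjusted p = 0.0168), with AdCKO replicates 3 and 5 alone (adjusted p = 0.0513) and with quantile normalization (adjusted p = 0.0620, all by limma).

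The genes of the sterol arm that were not called include Sqle and Cyp51, which are classical SREBP2 targets. Sqle, squalene epoxidase, which introduces oxygen in a rate-limiting step, was at 65.4 to 128 in Control and 65.1 to 89.2 in AdCKO (log2FC -0.20, 95% interval -0.55 to 0.15). Cyp51, lanosterol demethylase, was at 76.2 to 111 and 73.1 to 111 (log2FC -0.037, 95% interval -0.34 to 0.26), so that a change of the size seen in Idi1 or Nsdhl lies outside its interval. Lanosterol synthase, Lss, was at 119 to 194 in Control and 101 to 147 in AdCKO (log2FC -0.40, limma adjusted p = 0.0190). Ebp, a sterol isomerase, was at 92.6 to 149 and 99.5 to 114 (log2FC -0.25, limma adjusted p = 0.0738). Both of the latter were called lower without Control replicate 1 (log2FC -0.49 and -0.36, limma adjusted p = 0.00409 and 0.0021), and Lss also without AdCKO replicate 5 (log2FC -0.48, limma adjusted p = 0.0064).

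**Figure D2:**
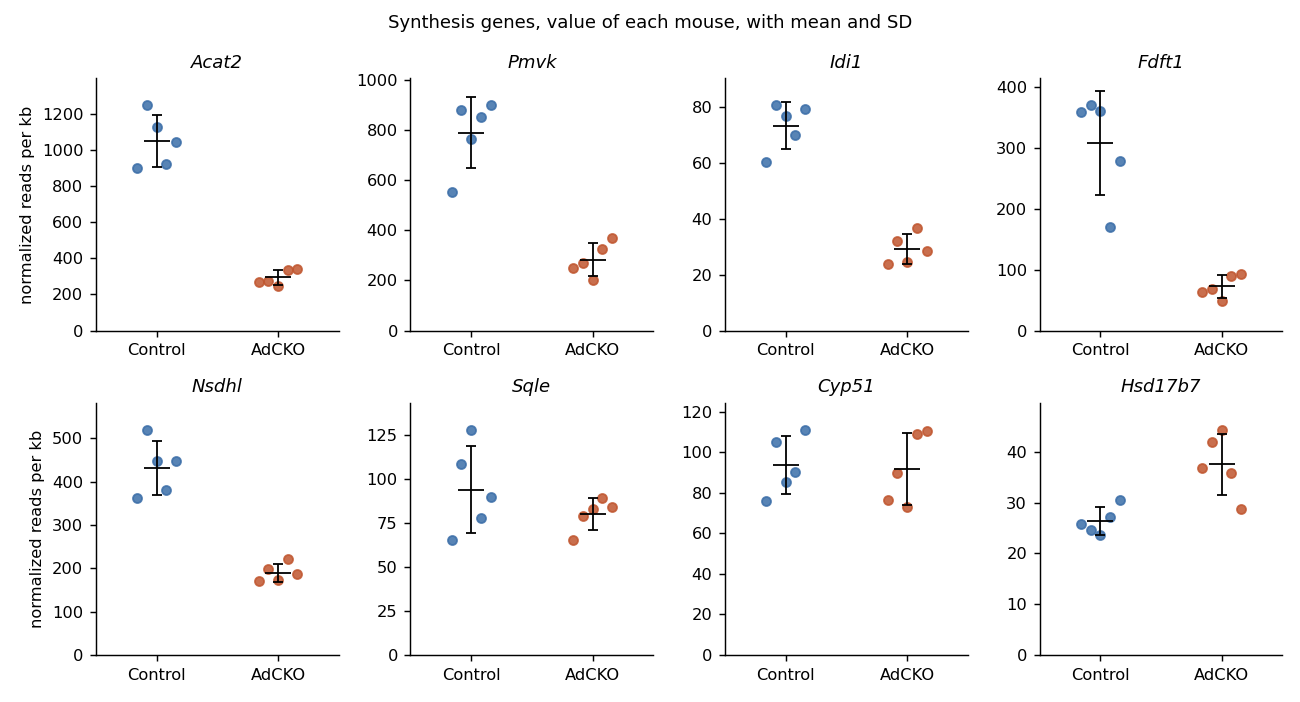
Values of 8 synthesis genes in normalized reads per kb (vertical axes, each from 0), 1 point per mouse, replicates 1 to 5 from left to right in each group, with the mean and SD of 5 mice in black. Acat2, Pmvk, Idi1, Fdft1 and Nsdhl separate without overlap, Sqle and Cyp51 overlap, and Hsd17b7 is higher in all AdCKO libraries but replicate 5.

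Within a genotype, the same mice often ranked lowest or highest across the synthesis genes. Control replicate 1 was the lowest Control library in 13 of the 15 genes, and Control replicate 2 the highest in 9. Among AdCKO mice, replicate 3 was lowest in 8 genes, and replicates 4 and 5 were highest in 7 and 6. As the median over the 15 genes relative to the Control mean on the log2 scale, Control libraries lay at -0.31, 0.26, 0.073, -0.061 and 0.0034, and AdCKO libraries at -0.83, -0.71, -1.17, -0.62 and -0.72. The lowest Control library was thus above the highest AdCKO library. For the 5 LXR target and efflux genes, the same measure was between -0.066 and 0.20 in Control and between 0.014 and 0.53 in AdCKO, and the groups overlapped, because AdCKO replicates 3 and 5 lay at 0.19 and 0.014. Genes of a library share its scaling and its tissue piece, so these medians are given as a description only.

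**Figure D3:**
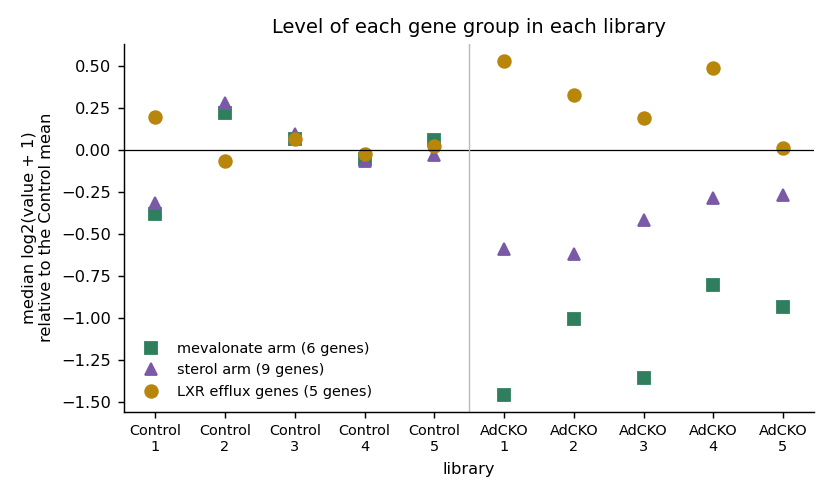
Median over the genes of a group of log2(value + 1) relative to the Control mean (vertical axis), for each of the 10 libraries (horizontal axis). The mevalonate arm (squares, 6 genes) lies between -0.38 and 0.22 in Control and between -1.46 and -0.80 in AdCKO. The sterol arm (triangles, 9 genes) lies between -0.31 and 0.28 and between -0.62 and -0.27. Its groups overlap, with Control replicate 1 at -0.31 below AdCKO replicates 4 and 5 at -0.29 and -0.27. The LXR target and efflux genes (circles, 5 genes) overlap between the groups as well.

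Of the 4 genes of uptake and handling, 2 were higher and 2 were not called. Soat1 encodes the enzyme that esterifies cholesterol for storage and lies at chr1:158358239-158404459 of mm9. It rose from 5.04, 4.42, 6.36, 4.78 and 3.61 in Control to 34.7, 43.4, 39.9, 47.1 and 30.3 in AdCKO. Mean values differed 8.07-fold and the groups were widely separated (log2FC 2.78, SE 0.15). Since Soat1 passed the filter only through the group where it is high, its test is given with a filter on the mean over all samples instead (a mean of at least 1, limma adjusted p = 4.61e-08). It was the lowest of the 30 genes in Control, and the rise stood at 2.63 with AdCKO replicates 3 and 5 alone.

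Scarb1, the receptor that takes up cholesterol esters from high-density lipoprotein (HDL), had 173, 204, 183, 183 and 211 in Control and 281, 268, 259.9, 271 and 270.0 in AdCKO. The AdCKO libraries lay close together and above all Control libraries (log2FC 0.50, SE 0.066, limma adjusted p = 3.01e-05). Lrp1, an endocytic receptor for remnant lipoproteins and many other ligands, had 146, 138, 133, 158 and 139.6 in Control and 163, 168, 133, 182 and 139.5 in AdCKO. The groups overlapped, and the higher AdCKO values were those of replicates 1, 2 and 4, the libraries with skeletal muscle markers. Lrp1 had a log2FC of 0.13 (limma adjusted p = 0.24), and of -0.070 with replicates 3 and 5 alone. Stard4, a cytosolic sterol carrier and SREBP2 target, was near the filter at 8.90 to 13.2 in Control and 9.26 to 10.6 in AdCKO (log2FC -0.11, limma adjusted p = 0.42).

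Both LXR genes were slightly lower. Nr1h3, which encodes LXRα, had 421, 441, 385, 437 and 435 in Control and 339.8, 346, 323, 317 and 311 in AdCKO. Its groups did not overlap (log2FC -0.37, SE 0.062, limma adjusted p = 2.00e-04). Nr1h2, which encodes LXRβ, had 338, 364, 308, 356 and 371 in Control and 306, 264, 266, 269.7 and 310.1 in AdCKO. Control replicate 3 fell between the 2 highest AdCKO values (log2FC -0.29, SE 0.075, limma adjusted p = 0.00427). The call for Nr1h2 was lost when any one of Control replicates 2, 4 and 5 or AdCKO replicates 2, 3 and 4 was left out, with adjusted p from 0.0112 to 0.0134 and log2 fold changes from -0.28 to -0.27. With quantile normalization neither LXR gene passed (log2FC -0.20 and -0.13, limma adjusted p = 0.0121 and 0.12).

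The 5 LXR target and efflux genes did not change as a block. Abcg1, the transporter that passes cholesterol to HDL particles, had 13.2, 16.4, 13.5, 14.6 and 16.3 in Control and 102, 88.8, 94.5, 87.1 and 56.7 in AdCKO. Every AdCKO value was far above the Control range, with replicate 5 the lowest of its group (log2FC 2.44, SE 0.14, limma adjusted p = 4.96e-08). Abca1, the transporter that loads cholesterol onto lipid-poor apolipoproteins and a textbook LXR target, was at 131 to 175 in Control and 123 to 173 in AdCKO. Its log2FC was -0.051, with a 95% interval of -0.27 to 0.17 that leaves out any change of the size of Abcg1. The ratio of Abcg1 to Abca1, both per kb, averaged 0.0982 in Control (SD 0.0144) and 0.581 in AdCKO (SD 0.0775), a pair chosen after its values were seen.

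Apoe and Apoc1 are neighbours on chromosome 7 and encode apolipoproteins of remnant and high-density particles. The 2 transcripts run in the same direction and lie 3584 bases apart, Apoe at chr7:20281593-20284515 and Apoc1 at chr7:20274829-20278008 of mm9. Apoc1 fell from 3637, 4162, 4569, 5136 and 4427 in Control to 661, 794, 694, 456 and 776 in AdCKO. On average 15.4% of the Control level was left, the largest fall among the 30 genes (log2FC -2.71, SE 0.15, limma adjusted p = 3.05e-08). Apoe, in contrast, had 5154, 4128, 5455, 3853 and 4124 in Control and 7033, 9301, 4836, 6866 and 5750.4 in AdCKO. AdCKO replicate 3 lay inside the Control range, and the gene was not called (log2FC 0.55, SE 0.17, limma adjusted p = 0.0112). This rests on the scaling, since Apoe was called higher with the same total in every library (log2FC 1.03, or 0.57 above the median of all genes, limma adjusted p = 1.03e-04) and with quantile normalization (log2FC 1.36, limma adjusted p = 3.69e-05).

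The pair had similar values in Control and not in AdCKO. The ratio of Apoe to Apoc1 was 1.42, 0.992, 1.19, 0.75 and 0.931 in Control and 10.6, 11.7, 6.97, 15.04 and 7.41 in AdCKO, again a pair chosen after its values were seen. Without Control replicate 3, AdCKO replicate 3 or AdCKO replicate 5, Apoe was called higher (log2FC 0.62, 0.66 and 0.60, limma adjusted p = 0.0086, 0.00291 and 0.00994), while with AdCKO replicates 3 and 5 alone its log2 fold change was 0.23 (limma adjusted p = 0.26). Mylip, the LXR target that marks lipoprotein receptors for degradation, ranged from 77.9 to 119 in Control mice and from 102 to 146 in AdCKO mice, which overlap (log2FC 0.35, limma adjusted p = 0.0268). Without AdCKO replicate 5, the lowest of its group, Mylip was called higher (log2FC 0.44, limma adjusted p = 0.00635). Abcg1, Soat1 and Apoe are also expressed by macrophages, whose summed markers were higher in every AdCKO library (6335 to 8430) than in every Control library (472.7 to 1369), and the part of these cells in the 3 genes was not tested.

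**Figure D4:**
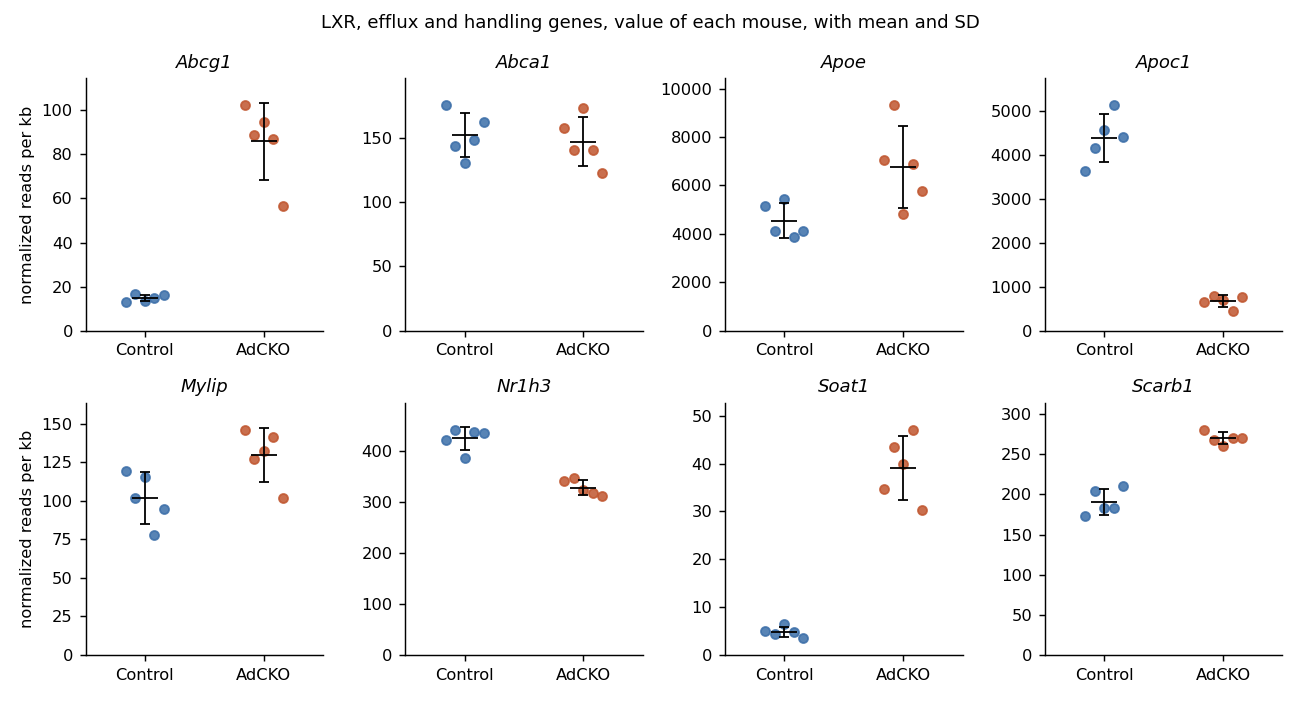
Values of 8 LXR, efflux and handling genes in normalized reads per kb (vertical axes, each from 0), 1 point per mouse, replicates 1 to 5 from left to right in each group, with the mean and SD of 5 mice in black. Abcg1, Soat1 and Scarb1 are higher in AdCKO and Apoc1 and Nr1h3 lower, all without overlap, while Abca1, Apoe and Mylip overlap.

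Other genes of the pathway, listed by role and with the data already known, put these changes in context. Of 66 further tested genes, 16 were higher, 25 lower and 25 not called, with a median log2 fold change of -0.090, beside 25.6% higher and 28.0% lower among all genes tested. The counts by role that follow are to be read against the same shares. Nceh1, Arl4c and Apoc4 passed the filter only through AdCKO and Gramd1c only through Control, the group where each is high, so that their calls add no support to these counts. The further synthesis genes Msmo1 (log2FC 0.12) and Sc5d (-0.32) were not called. In SREBP processing 1 of 8 was higher and 4 were lower. The partners Erlin1 and Erlin2, which help degrade sterol-regulated proteins of the endoplasmic reticulum, went opposite ways (log2FC 1.19 and -0.84), while Ufd1l (-0.36) and the protease gene Mbtps1 (-0.32) were lower.

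In uptake 2 of 6 were lower, the sorting receptor gene Sort1 (-0.87) and the VLDL receptor gene Vldlr (-0.83). Trafficking and ester genes had 6 higher and 6 lower of 17. Nceh1, a cholesterol ester hydrolase of macrophages, was at 9.96 ± 1.18 in Control and 116 ± 9.74 in AdCKO (log2FC 3.41, SE 0.092). Gramd1c, of a sterol-binding protein family, was at a mean of 14.98 in Control and 5.62 in AdCKO (log2FC -1.27). Npc1, which moves cholesterol out of lysosomes, was higher (1.31), and Osbpl1a, of another sterol-binding family, was lower (-0.78).

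Further LXR targets and partners had 6 higher and 4 lower of 15. Apod (2.30) and Pltp (0.95), which encode a lipid carrier and the phospholipid transfer protein of plasma, were higher. Apoc2 was higher as well (1.15), from values near the filter, at 11.1 to 12.3 in Control and 23.0 to 34.8 in AdCKO. It lies in the same cluster as Apoe and Apoc1, at chr7:20256928-20263290, so that Apoc1 fell between neighbours that did not. In Control the values of Apoc2 were far below those of Apoc1 (mean 4386). Of the annotated exon bases of Apoc2, 12.0% are shared with Apoc4. Abca2, a transporter of the lysosome and endosome, was lower (-1.37). Of 3 tested oxysterol and bile acid enzymes, Hsd3b7 (-1.21) and Cyp27a1 (-0.85), which makes an oxysterol that activates LXR, were lower. In the isoprenoid branch, which draws on farnesyl diphosphate, 3 of 13 were higher and 6 lower, among them Fnta (-0.84), Pdss2 (-0.80) and Icmt (-0.60) on the lower side and Zmpste24 (0.52) on the higher.

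The direction of small changes depends on the scaling between the groups. With every library scaled to the same total, all genes together moved up by a median log2FC of 0.471, and called genes were then 86.1% higher and 13.9% lower, against 47.7% and 52.3% under the deposited normalization. Under this scaling 8 of the 30 genes were lower and 10 higher, and 6 of 15 synthesis genes were lower, Acat2 (-1.35), Fdft1 (-1.58), Pmvk (-1.01), Idi1 (-0.85), Nsdhl (-0.69) and Dhcr7 (-0.50). Relative to the median of all genes under it, these 6 were lower by values from -0.96 to -2.04. Scap, both LXR genes and Srebf2 changed sign (0.12, 0.19 for Nr1h2, 0.11 for Nr1h3, and 0.38), as did Abca1 (0.43) and Cyp51 (0.44).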

How the data were processed

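Brown fat RNA of 5 Control and 5 AdCKO mice was analysed, grouped by the sample labels. The authors isolated polyadenylated RNA with a TruSeq kit, mapped reads to mm9 with STAR, made tag directories with HOMER, used iRNA-seq for counting on exons and DESeq2 for normalization (versions not given in the sources used here). The deposited unit is a signal, normalized reads divided by the kb of exon counted, which is not in whole counts, so depth before normalization is unknown and the precision given is the spread between 5 mice. The authors' fold changes, adjusted p-values and lists of called genes were not used.

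Genes with a mean of at least 10 in Control or AdCKO were tested on log2(value + 1) with limma 3.58.1 in R 4.3.3 (lmFit, eBayes with an intensity trend, two-sided), Benjamini-Hochberg adjusted over 11244 genes, at a threshold of 0.01 (as the methods of the study set the filter and threshold). On simulated data for 10608 genes, 180 of 189 changed genes were recovered (95.2%) with 0 false calls. Exon overlap came from GENCODE vM1 on the same build. Promoters came from RefSeq. Plots were made in matplotlib 3.10.9 under Python 3.11.15.

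The genes and all lists were chosen with earlier results of these data known. Values in every library are given for the 3 genes with the smallest p of each role group and for called genes against their group. Other pathway lists are given by at most 4 genes with the smallest p, some listed genes are not reported here, and Acat3, Ctsb and the pairs in ratios were chosen after their values were seen. Alternatives were other pseudocounts, filters, scalings and variance models, each library left out, a block for the replicate number, a threshold of 0.05 and, added after seeing the data, AdCKO replicates 3 and 5 only. Whether replicate numbers pair mice is not known. Over all genes, correlations of deviations within a number ran from -0.268 to 0.098, which does not settle it.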

Additional observations from a re-analysis of the deposited data

How the results depend on the processing

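The lower calls among synthesis genes, 9 in all, stayed within 1.5 times that number under all 22 alternatives, between 6 and 11. With the same total in every library, which shifts the median of all genes by 0.471, 10 of the 30 genes were higher and 8 lower, 2 synthesis genes and 4 LXR target and efflux genes were higher, the median of the synthesis genes was -0.28 and that of the LXR target and efflux genes 0.83. Under it the log2 fold change changed sign for Srebf2 (0.38), Scap (0.12), Insig2 (0.25), Mvd (0.18), Sqle (0.28), Lss (0.080), Cyp51 (0.44), Ebp (0.23), Stard4 (0.33), Nr1h2 (0.19), Nr1h3 (0.11) and Abca1 (0.43), relative to an all-gene median of 0.46. With quantile normalization 0 synthesis genes and 2 LXR target and efflux genes were higher, Abca1 was at 0.015 and Stard4 was called lower (-0.63). With AdCKO replicates 3 and 5 only, 0 synthesis genes were higher and Lrp1 was at -0.070. The number of LXR target and efflux genes called higher was 2 with a robust trend, 3 with array quality weights and 3 at an adjusted p of 0.05, and from 1 to 3 with each library left out, the additions being Apoe and, with array weights, at 0.05 or without AdCKO replicate 5, also Mylip. With each library left out Cyp51 ran from -0.11 to 0.039, being above 0 without Control replicate 2 or 5 or AdCKO replicate 1 or 3, and Abca1 ran from -0.11 to 0.011, being above 0 without Control replicate 1 or AdCKO replicate 5. The cause was not tested for these changes.

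Over all genes no pairing by replicate number was seen (correlations from -0.268 to 0.098, and 1 of 10 libraries correlated best with its own number). This does not settle whether the numbers pair mice. A block for the number lowered the SE of Insig1 from 0.147 to 0.081 and raised that of Acat2 from 0.116 to 0.124. With the replicate number as a block 0 synthesis genes were called higher, since Hsd17b7 was lost (limma adjusted p = 0.0168), and no other call of the 30 genes changed. All 30 genes kept their calls with a pseudocount of 0.1 or 10, without a filter, with the filter set to a mean of 1 across the samples, and in limma without the trend. No counting error can be given, the depth before normalization being unknown, for genes with low values such as Soat1 and Stard4.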
